A study of Homo sapiens with 18 samples.

Results

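Chemokines are small secreted proteins that steer leukocytes along a gradient by binding G protein-coupled receptors. The 8 genes described here are the CXC ligands CXCL1, CXCL2, CXCL3, CXCL8, CXCL10 and CXCL16 and the CC ligands CCL20 and CCL2, taken by gene symbol from the 39859 symbols counted in the series. All 8 symbols were listed. CXCL10 and CCL2 had 0 reads in all 18 libraries, and the other 6 members had between 53 reads (CCL20) and 4397 reads (CXCL16) in the 15 libraries that entered the comparisons.

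The libraries were QuantSeq libraries, which count the polyadenylated 3′ ends of mRNAs, from RKO-iCas9 cells, a single-cell-derived clone of the human colon carcinoma line RKO that makes Cas9 on addition of doxycycline. Every cell population carried a lentivirally delivered guide, was sorted for it and received 100 ng/mL doxycycline for 5 days, so that the control groups had been edited too, at the AAVS1 safe-harbour site (sgAAVS1), and the test groups at ERH (sgERH), which encodes a small nuclear protein linked to RNA processing. Cells were then non-treated (NT, water), or received 25 ng/mL IFNγ or 10 ng/mL IL-1β for 4 h. Group sizes in the comparisons were 2 libraries for sgAAVS1 NT, sgAAVS1 IL-1β and sgERH IFNγ and 3 libraries for sgERH NT, sgAAVS1 IFNγ and sgERH IL-1β. The populations are edited pools of 1 clone with 1 guide per gene, and the labels call the replicates biological without naming separate cultures. The p-values therefore measure how far these particular libraries vary, which can be technical variation.

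Depth was similar in the 15 libraries, at 4987127 to 5986338 reads. The libraries that the study had set aside as outliers were left out here too. They held 3811492 reads (the library labelled sgAAVS1 NT replicate 1), 4293010 reads (sgERH IFNγ replicate 2) and 11821239 reads (sgAAVS1 IL-1β replicate 3). ERH stood at 515 to 592 CPM (counts per 10 to the power 6 reads) with sgAAVS1 and at 257 to 355 CPM with sgERH in the libraries used, although a 3′ end can keep its reads after an edit further upstream and is no direct check of editing. In the left-out library labelled sgAAVS1 NT replicate 1 it stood at 52.7 CPM, below every sgERH library used. Of 7 epithelial markers, KRT19 had 0 reads and CDH1 and VIL1 had 1 read each, whereas EPCAM, KRT8, KRT18 and CDX2 passed the expression filter. Of 10 leukocyte markers 7 had 0 reads, PTPRC among them, and the summed level of the list stayed at or below 1.66 CPM in every library.

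CXCL1, CXCL2, CXCL3 and CXCL8 carry the Glu-Leu-Arg motif, bind CXCR2 and attract neutrophils, and they are textbook targets of NF-κB downstream of the IL-1 receptor. CXCL10 is a ligand of CXCR3 on T cells and natural killer cells and is known for its induction by IFNγ, CXCL16 is made as a membrane-anchored protein that binds CXCR6, CCL20 binds CCR6 and is typical of epithelial surfaces, and CCL2 draws monocytes through CCR2. In GENCODE 44 on GRCh38, 4 members lie in the CXC cluster of chromosome 4, namely CXCL8 (73740519 to 73743716, + strand), CXCL1 (73869393 to 73871308, + strand), CXCL3 (74036589 to 74038807, − strand) and CXCL2 (74097040 to 74099196, − strand). CXCL10 lies further along chromosome 4 (76021118 to 76023497, − strand). CXCL16 (4733533 to 4739928, − strand) and CCL2 (34255274 to 34257208, + strand) are on chromosome 17, and CCL20 (227805739 to 227817564, + strand) is on chromosome 2.

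RefSeq promoter sequence of GRCh38.p14 was found for 6 of the 8 members and not for CXCL16 and CCL2. The upstream sequences of the chromosome 4 members that were read in these cells are shown because their windows share the κB letters GGAATTTCC, printed in capitals below. The 120 bases that end 1 base before the RefSeq start are chr4:73869273-73869392 (+ strand) for CXCL1, chr4:74099196-74099315 (− strand) for CXCL2, chr4:74038690-74038809 (− strand) for CXCL3 and chr4:73740449-73740568 (+ strand) for CXCL8.
CXCL1: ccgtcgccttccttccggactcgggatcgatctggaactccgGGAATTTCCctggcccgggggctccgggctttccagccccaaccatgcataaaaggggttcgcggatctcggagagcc
CXCL2: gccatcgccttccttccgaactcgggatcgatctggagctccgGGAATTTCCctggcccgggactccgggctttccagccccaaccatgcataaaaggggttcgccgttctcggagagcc
CXCL3: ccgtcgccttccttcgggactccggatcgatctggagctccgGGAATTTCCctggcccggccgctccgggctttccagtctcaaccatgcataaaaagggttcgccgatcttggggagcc
CXCL8: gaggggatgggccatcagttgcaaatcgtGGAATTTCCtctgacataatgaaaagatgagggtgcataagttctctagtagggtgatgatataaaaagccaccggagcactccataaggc
In the 250 bases before the start, GGAATTTCC on either strand was found in 145 of 35116 RefSeq promoters (0.413%). Counted back from −1 at the base before the start, it spanned −78 to −70 in CXCL1, −77 to −69 in CXCL2, −78 to −70 in CXCL3 and −91 to −83 in CXCL8. Identity was counted after pairwise alignment with gaps allowed, as a share of the 120 bases. It was 94.2% for CXCL1 and CXCL2, 90.8% for CXCL1 and CXCL3, and 89.2% for CXCL2 and CXCL3. For CXCL8 and CXCL1 it was 35.8%, and CXCL1 and CCL20 reached 40.0% in the same way. In the 250 bases searched, CXCL8 alone of the 4 also held the AP-1 letters TGANTCA (both strands; 6.57% of promoters) and the sense letters TATAAA (6.80%). The AP-1 letters spanned −137 to −131, outside the printed window, and TATAAA spanned −31 to −26. All these positions count from the RefSeq start. The GENCODE starts of CXCL3 and CXCL8 lie inside their printed windows. Most of the CXCL3 window, part of the CXCL8 window and the last base of the CXCL2 window thus fall within the GENCODE spans.

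A window of the same length is shown for a member that was not read, CXCL10 (chr4:76023603-76023722, − strand), and for the CC member that was, CCL20 (chr2:227813722-227813841, + strand, ahead of a RefSeq start that lies inside the longer GENCODE span). Capitals mark the same κB letters on the other strand in CXCL10 and matches to the looser GGGNNNNNCC on either strand in CCL20, some of which overlap.
CXCL10: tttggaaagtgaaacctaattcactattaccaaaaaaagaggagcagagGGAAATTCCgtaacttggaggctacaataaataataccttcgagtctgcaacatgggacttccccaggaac
CCL20: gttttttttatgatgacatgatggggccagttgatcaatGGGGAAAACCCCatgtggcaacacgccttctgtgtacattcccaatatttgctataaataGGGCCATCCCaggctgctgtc
CXCL10 held GGAAATTCC from −176 to −168, and the interferon-response letters GAAANNGAAA (both strands; 3.02% of promoters) from −221 to −212. CCL20 lacked GGAATTTCC in this window, and GGGNNNNNCC was present in 54.4% of promoters. The same 9 letters also stood ahead of the chromosome 4 genes CXCL5, CXCL6 and CXCL11, each with 0 reads in the 15 libraries. A match describes the letters in the window and is no evidence of binding.

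IL-1β raised the neutrophil-attracting CXC ligands with both guides. A gene is said to have risen where edgeR's adjusted p was at most 0.05 and the log2 fold change at least 1. By that rule 4 of the 8 members, CXCL1, CXCL2, CXCL3 and CXCL8, rose in sgAAVS1 (0.628% of the 13370 tested genes rose) and the same 4 rose in sgERH (0.269%). Reads per library are given as counted, and from here on CPM rest on TMM-scaled library sizes and carry their SD. CXCL2 and CCL20 passed the filter on low counts only through their IL-1β libraries, since elsewhere no library used held more than 7 and 1 of their reads. Their IL-1β tests drew on the group that admitted them, so nothing is read from the place of CXCL2 in these counts, and the p-values of both are given as descriptions. All IL-1β libraries lay above all NT libraries in 22.6% of the tested genes in sgAAVS1 and in 8.4% in sgERH, and statements on overlap are to be read beside these shares.

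CXCL1, a strong CXCR2 agonist, had 2 and 2 reads in the sgAAVS1 NT libraries and 133 and 142 with IL-1β. Its level went from 0.391 ± 0.040 to 28.0 ± 1.6 CPM (n = 2 and 2; log2 fold change 6.08 ± 0.48 SE, edgeR adjusted p = 3.86e-09). In sgERH it had 16, 10 and 9 reads without treatment and 223, 184 and 317 with IL-1β, or 2.04 ± 0.66 and 43.4 ± 10.8 CPM (n = 3 and 3; log2 fold change 4.40 ± 0.28, edgeR adjusted p = 3.22e-11). No NT library overlapped an IL-1β library with either guide. With all 18 libraries the log2 fold change in sgAAVS1 was 4.62 and the call stood. Of its 1083 reads 9.88% also mapped elsewhere, the highest share among the members, and without multimapping reads the same number of members rose in each comparison.

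CXCL3, another CXCR2 ligand, had 2 and 9 reads in sgAAVS1 NT and 87 and 89 with IL-1β. The corresponding levels were 1.03 ± 0.86 and 17.9 ± 0.48 CPM (n = 2 and 2; log2 fold change 4.04 ± 0.38, edgeR adjusted p = 1.36e-07). In sgERH the reads were 16, 20 and 16 against 202, 159 and 219, or 3.04 ± 0.49 and 34.8 ± 4.1 CPM (n = 3 and 3; log2 fold change 3.51 ± 0.25, edgeR adjusted p = 2.06e-10). The groups stood apart with both guides, and the 2 sgAAVS1 NT libraries differed from each other. The fold change in sgAAVS1 was accordingly 3.44 without sgAAVS1 NT replicate 2 and 5.33 without replicate 3, still called in both.

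CXCL8, which encodes interleukin-8 and binds CXCR1 as well as CXCR2, had 3 and 3 reads in sgAAVS1 NT and 72 and 74 with IL-1β. It went from 0.587 ± 0.061 to 14.9 ± 0.45 CPM (n = 2 and 2; log2 fold change 4.61 ± 0.53, edgeR adjusted p = 2.31e-06). In sgERH its 10, 8 and 16 reads became 107, 86 and 184, or 1.97 ± 0.67 and 22.5 ± 8.5 CPM (n = 3 and 3; log2 fold change 3.50 ± 0.33, edgeR adjusted p = 1.46e-07). Replicate 3 of sgERH IL-1β was the highest of its group for CXCL8, and this also held for CXCL1, CXCL2, CXCL3 and CCL20.

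CXCL2, a close paralog of CXCL1, had 0 and 1 reads in sgAAVS1 NT and 17 and 21 with IL-1β. The ratio of pooled reads, each set against the summed TMM-scaled sizes of its libraries, was 39.7. Its counting interval (95%, exact conditional binomial), which covers counting error only, was 6.71 to 1610. CXCL2 had an edgeR adjusted p of 0.0193. It missed the threshold on leaving out any 1 of the 4 libraries of this comparison and with all 18 libraries. In sgERH it had 2, 7 and 6 reads without treatment and 29, 18 and 87 with IL-1β, or 0.877 ± 0.47 and 7.94 ± 6.40 CPM (n = 3 and 3; log2 fold change 3.16 ± 0.56, edgeR adjusted p = 0.00326). The call in sgERH was lost with all 18 libraries (edgeR adjusted p = 1.00) and with only these groups in the fit (0.118). Under IL-1β replicate 3 held 15.3 CPM, well above the 5.13 and 3.43 CPM of the other libraries, and without it the log2 fold change was 2.27, which still passed.

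CCL20 was read almost only after IL-1β. It had 0 reads in both sgAAVS1 NT libraries and 6 and 17 with IL-1β. Pooled, this is 8.01-fold above a floor of 3 reads over the NT group, and the edgeR adjusted p of 0.0538 missed the threshold. The left-out sgAAVS1 IL-1β replicate 3, the deepest library, held 2 reads of CCL20 (0.169 CPM of its total reads). With all 18 libraries CCL20 was not among the members called in sgAAVS1. In sgERH CCL20 had 1 read in each NT library and 3, 7 and 16 with IL-1β. The ratio was 8.97 with a counting interval of 2.75 to 46.3 (edgeR adjusted p = 0.134). The IL-1β libraries lay above the NT libraries with both guides, as they did for CXCL1, CXCL2, CXCL3 and CXCL8. Such separation was found in 22.6% of the tested genes in sgAAVS1 and in 8.4% in sgERH.

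**Figure D1:**
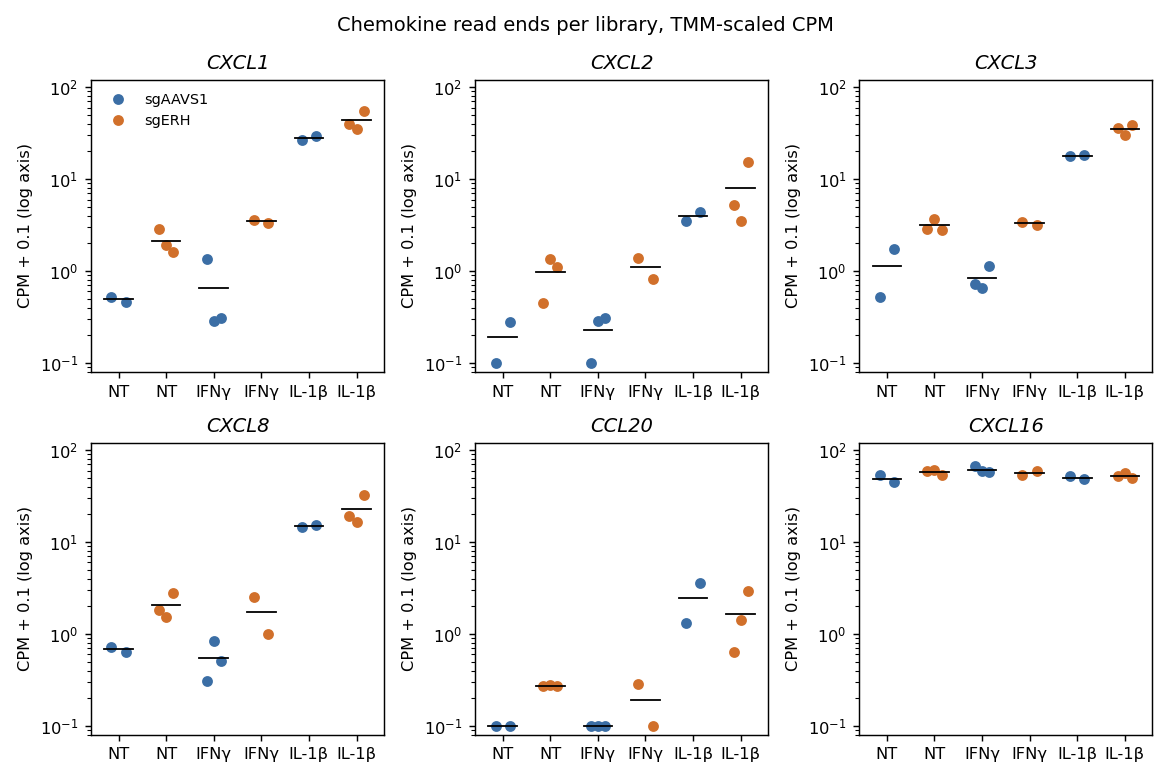
Level of the 6 members with reads in each of the 15 libraries, as TMM-scaled CPM plus 0.1 on a log axis, by treatment and guide (blue sgAAVS1, orange sgERH; horizontal lines are group means, n = 2 or 3). CXCL1 sits at 26.8 to 29.1 CPM in sgAAVS1 IL-1β and at 35.1 to 55.6 in sgERH IL-1β, above all libraries of the other groups, whereas CXCL16 stays between 44.8 and 66.9 CPM throughout.

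CXCL16, the membrane-anchored member, was read in every library and did not follow the others. Its reads were 254 and 247 in sgAAVS1 NT and 259 and 235 with IL-1β, or 49.1 ± 6.0 and 50.2 ± 2.9 CPM (n = 2 and 2; log2 difference 0.04 ± 0.15, edgeR adjusted p = 0.957). In sgERH the reads were 338, 336 and 316 against 299, 294 and 281, or 57.7 ± 3.5 and 52.7 ± 3.4 CPM (n = 3 and 3; log2 difference −0.13 ± 0.12, edgeR adjusted p = 0.668). NT and IL-1β libraries overlapped with both guides. The small positive difference in sgAAVS1 turned negative with the replicate block and without either sgAAVS1 NT replicate 3 or sgAAVS1 IL-1β replicate 1, and was 0.61 with all 18 libraries (edgeR adjusted p = 0.326).

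By the rule, IFNγ raised none of the 6 tested members with either guide, where 0.598% of the tested genes rose in sgAAVS1 and 0.015% in sgERH. CXCL10 and CCL2 had 0 reads and could not be tested. CCL20 had 0 reads in both NT and IFNγ libraries of sgAAVS1, so no change could be seen there. DESeq2 also called 0 members with each guide. At an unadjusted p under 0.05 edgeR had 1 member in sgAAVS1, CXCL16, and 0 in sgERH, where 1253 and 888 of the 13370 genes were at that level. CXCL16 had 322, 319 and 283 reads in sgAAVS1 IFNγ, or 61.5 ± 4.8 CPM (n = 3), and these libraries lay above both sgAAVS1 NT libraries, as in 13.9% of the tested genes (log2 difference 0.33 ± 0.13, unadjusted p = 0.0214 and edgeR adjusted p = 0.414). In sgERH IFNγ it had 290 and 324 reads, or 56.2 ± 3.7 CPM (n = 2), which overlapped sgERH NT (log2 difference −0.04 ± 0.13, edgeR adjusted p = 0.979). The 2 IFNγ differences of CXCL16 were not shown to differ between guides (interaction −0.36 ± 0.19, edgeR adjusted p = 0.859). In that interaction 0 of the 6 tested members were called by edgeR or DESeq2 (0.202% of the tested genes were called by edgeR). At an unadjusted p under 0.05 it had 0 members and 781 of the 13370 genes.

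The neutrophil-attracting ligands stayed at low counts with IFNγ. CXCL1 had 6, 1 and 1 reads in sgAAVS1 IFNγ and 19 and 18 in sgERH IFNγ, and the latter pair lay above the sgERH NT libraries, as in 15.5% of the tested genes (3.39 ± 0.17 against 2.04 ± 0.66 CPM, edgeR adjusted p = 0.774). CXCL3 had 3, 3 and 5 reads in sgAAVS1 IFNγ and 18 and 17 in sgERH IFNγ, within or overlapping the range of the NT libraries of each guide. CXCL8 had 1, 4 and 2 reads with sgAAVS1 and 13 and 5 with sgERH, also overlapping NT. For CXCL2 the counts were 0, 1 and 1 with sgAAVS1 and 7 and 4 with sgERH. CCL20 had 0 reads in all 3 sgAAVS1 IFNγ libraries and 1 and 0 in those of sgERH.

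CXCL10, the member best known as an IFNγ target, had 0 reads in every library. With 3 reads taken as the upper limit of a count of 0, the 15737033 reads of the 3 sgAAVS1 IFNγ libraries allow up to 0.191 CPM. The 79902405 reads of all 15 libraries allow up to 0.0375 CPM. Both limits are CPM of total reads, without TMM scaling. The same limits hold for CCL2. CXCL9 and CXCL11, the other CXCR3 ligands and neighbours of CXCL10, also had 0 reads. In the same libraries the interferon-response factor IRF1 went from 22.8 ± 1.9 to 825 ± 64 CPM with IFNγ in sgAAVS1 (n = 2 and 3; log2 fold change 5.18 ± 0.14, edgeR adjusted p = 1.48e-20) and from 28.0 ± 2.4 to 118 ± 0.047 CPM in sgERH (n = 3 and 2; 2.07 ± 0.12, edgeR adjusted p = 2.49e-12). Transcripts that end outside the counted windows would not be seen.

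Without treatment, sgERH libraries held more reads of the neutrophil-attracting ligands than sgAAVS1 libraries. Of the 8 members 3 were higher by the same rule (CXCL1, CXCL3 and CXCL8), where 5.95% of the tested genes were higher. CXCL1 had 16, 10 and 9 reads against 2 and 2 (2.04 ± 0.66 against 0.391 ± 0.040 CPM; log2 fold change 2.32 ± 0.66, edgeR adjusted p = 0.0106). CXCL3 had 16, 20 and 16 reads against 2 and 9 (log2 fold change 1.49 ± 0.45, edgeR adjusted p = 0.0143). CXCL8 had 10, 8 and 16 reads against 3 and 3 (log2 fold change 1.72 ± 0.64, edgeR adjusted p = 0.0486), a call that DESeq2 did not make (adjusted p = 0.0549). In these genes and in CXCL2, CXCL16 and CCL20 every sgERH NT library lay above both sgAAVS1 NT libraries, as in 27.6% of all tested genes.

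These baseline differences rest on few reads in 2 control libraries. Leaving out sgAAVS1 NT replicate 2 left 0 members higher, leaving out sgAAVS1 NT replicate 3 left only CXCL3, fitting only these groups left only CXCL1, and using all 18 libraries left 0. In the library labelled sgAAVS1 NT replicate 1, which the 18-library fit brings back, CXCL1 had 9 reads, CXCL3 had 0 and CXCL8 had 5. The log2 fold change of CXCL3 ran from 0.88 to 2.78 over the fits that left out 1 library, and that of CXCL1 fell to 0.90 with all 18. CXCL2 had 15 reads over the sgERH NT libraries against 1 over those of sgAAVS1, a ratio of 8.98 with a counting interval of 1.38 to 378 (edgeR adjusted p = 0.1001). CCL20 had 3 reads against 0, and CXCL16 stood at 57.7 ± 3.5 against 49.1 ± 6.0 CPM (log2 difference 0.24 ± 0.13, edgeR adjusted p = 0.204).

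**Figure D2:**
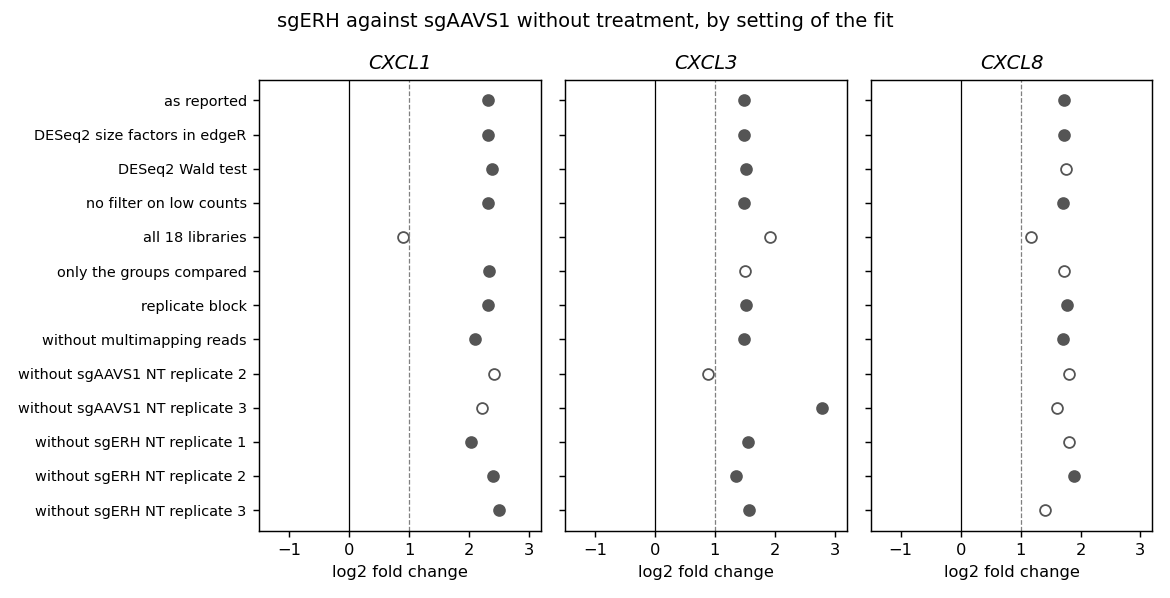
Log2 fold change of CXCL1, CXCL3 and CXCL8 between sgERH and sgAAVS1 without treatment in the reported fit and in 12 other fits; filled points passed both thresholds (adjusted p at most 0.05 and, dashed line, log2 fold change of 1), open points did not. All points lie above 0, from 0.88 (CXCL3 without sgAAVS1 NT replicate 2) to 2.78 (CXCL3 without sgAAVS1 NT replicate 3), while the CXCL8 call is open in most fits that leave out a library.

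Under IFNγ the guides again differed in CXCL1 and CXCL3, the 2 of 8 members that were higher in sgERH (5.24% of the tested genes were). CXCL1 had 19 and 18 reads against 6, 1 and 1 (3.39 ± 0.17 against 0.546 ± 0.61 CPM; log2 fold change 2.62 ± 0.54, edgeR adjusted p = 0.000633). CXCL3 had 18 and 17 reads against 3, 3 and 5 (3.21 ± 0.17 against 0.736 ± 0.25 CPM; log2 fold change 2.10 ± 0.46, edgeR adjusted p = 0.00119). Both calls were lost with all 18 libraries, in which sgERH IFNγ replicate 2 adds 3 reads of CXCL1 and 1 read of CXCL3. Without sgAAVS1 IFNγ replicate 1, which held 6 of the 8 control reads of CXCL1, its log2 fold change was 3.97. CXCL8 just missed the threshold on p (log2 fold change 1.78 ± 0.67, edgeR adjusted p = 0.0519) and passed with DESeq2, without the filter, and without sgAAVS1 IFNγ replicate 2 or sgERH IFNγ replicate 3. CXCL2 had 11 reads against 2, a ratio of 7.59 with a counting interval of 1.66 to 70.5 (edgeR adjusted p = 0.0761). For these 4 genes the sgERH libraries lay above those of sgAAVS1, as in 29% of all tested genes, and for CXCL16 they overlapped.

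Under IL-1β, where the reads were more numerous, 0 of the 6 tested members differed between guides by the rule. DESeq2 also called 0, and 5.68% of the tested genes were higher in sgERH by edgeR. CXCL3 came closest, at 34.8 ± 4.1 in sgERH against 17.9 ± 0.48 CPM in sgAAVS1 (log2 difference 0.96 ± 0.23, edgeR adjusted p = 0.00303, below the threshold on fold). CXCL1 stood at 43.4 ± 10.8 against 28.0 ± 1.6 CPM (log2 difference 0.63 ± 0.24, edgeR adjusted p = 0.0493). Of the tested genes, 13.3% were higher in sgERH at an adjusted p of at most 0.05 whatever the fold. For CXCL1, CXCL3 and CXCL8 each sgERH library lay above both sgAAVS1 libraries, as in 25.6% of the tested genes. Adjusted p missed the threshold for CXCL8 (log2 difference 0.60 ± 0.30, edgeR adjusted p = 0.143) and CXCL2 (1.04 ± 0.54, edgeR adjusted p = 0.160; the difference was 0.15 without sgERH IL-1β replicate 3). Without sgERH IL-1β replicate 2, CXCL2 and CXCL3 passed both thresholds. CCL20 was the member with the lower mean in sgERH, at 1.56 ± 1.16 against 2.35 ± 1.61 CPM (log2 difference −0.58 ± 0.71, edgeR adjusted p = 0.593), and this difference was positive without sgAAVS1 IL-1β replicate 2. CXCL16 differed by 0.07 ± 0.13 (edgeR adjusted p = 0.746), and by −0.20 with all 18 libraries.

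Whether the IL-1β response itself differed between guides was tested as an interaction. It was called for 0 of the 8 members and for 0% of all tested genes by edgeR, with 1487 of the 13370 genes and 1 member, CXCL1, at an unadjusted p under 0.05. DESeq2 called 2 genes and 0 members, and edgeR called 70 genes without the filter on low counts and 140 without sgERH IL-1β replicate 3, again with 0 members. The interaction was −1.69 ± 0.73 for CXCL1 (edgeR adjusted p = 0.409), −1.12 ± 0.72 for CXCL8 (0.557) and −0.53 ± 0.51 for CXCL3 (0.706; it was 0.07 without sgAAVS1 NT replicate 2). With all 18 libraries it was −0.23 for CXCL1 (edgeR adjusted p = 0.899) and −0.59 for CXCL8 (0.694). On the log2 scale the point estimates of these genes were thus smaller in sgERH, where the NT level was higher, while the added level in CPM was larger. IL-1β added 27.6 ± 1.1 CPM (SE) of CXCL1 in sgAAVS1 and 41.3 ± 6.3 in sgERH. For CXCL3 the addition was 16.9 ± 0.70 and 31.8 ± 2.4 CPM, and for CXCL8 14.3 ± 0.32 and 20.6 ± 4.9 CPM. The difference between guides on the CPM scale was not tested. The comparisons share NT and IL-1β libraries, so their values are not independent of each other.

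**Figure D3:**
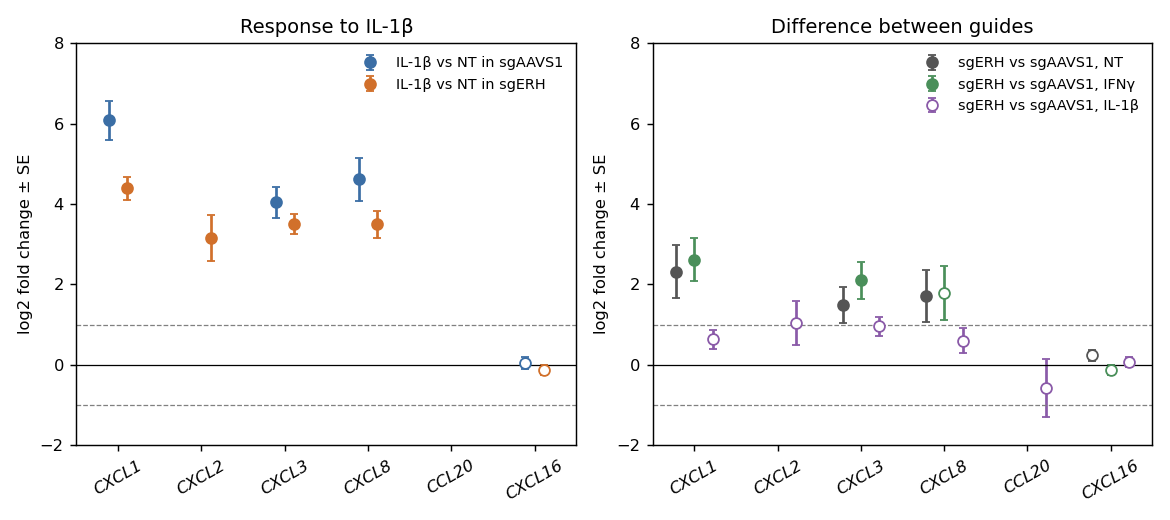
Log2 fold change ± SE of the members in response to IL-1β (left, by guide) and between guides (right, by treatment) from the edgeR fit; filled points were called, open points were not, dashed lines mark a log2 fold change of 1 in either direction, and no point is drawn where a group had 3 reads or fewer. The IL-1β response of CXCL1 is 6.08 in sgAAVS1 and 4.40 in sgERH, the guide difference of CXCL1 is 2.32 without treatment and 0.63 under IL-1β, and CXCL16 lies near 0 in all 5 comparisons.

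Over the 15 libraries the 4 neutrophil-attracting ligands had like profiles, with Pearson r of log2 CPM between 0.93 and 0.97 for each pair. The libraries share their treatment groups, and within groups r ran from −0.22 (CXCL1 with CXCL8) to 0.63 (CXCL2 with CXCL8). By the same measure, the 3 tested genes most like each member were as follows. NINJ1, which encodes a membrane protein, was nearest to CXCL1 (r = 0.95), CXCL3 (0.96) and CXCL8 (0.94). NFKB2, an NF-κB subunit, followed for CXCL1 (0.95) and CXCL8 (0.94) and was nearest to CCL20 (0.90). TRAF1, a signalling adaptor, came next for CXCL1 (0.95), and the NF-κB subunits REL (0.95) and RELB (0.95) followed NINJ1 for CXCL3. For CXCL2 these were the NF-κB inhibitor NFKBIA (0.94), AC010733.2 (0.94) and FRMD6 (0.93), for CXCL8 NFKBIA came last of the 3 (0.93), and for CCL20 EHD1 (0.89) and NINJ1 (0.87) followed. CXCL16 was most like STAT3 (0.83), ARL4AP5 (0.80, with 65.7% of its reads multimapping) and SHFL (0.78), and its r with the 4 ligands lay between −0.47 and −0.33. These correlations are given as descriptions.

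Of 22 genes from the IL-1 receptor to NF-κB, 21 were tested. With IL-1β 7 rose in sgAAVS1 (TAB2, NFKB1, NFKB2, RELB, REL, NFKBIA and NFKBIZ) and 2 in sgERH (REL and NFKBIA). Of all tested genes 0.628% and 0.269% rose. The median log2 fold change of the 21 was 0.88 in sgAAVS1 and 0.31 in sgERH, against −0.02 and 0.01 over all tested genes. In sgERH, NFKB1 (0.71, edgeR adjusted p = 0.00172), NFKB2 (0.86, 0.000225), RELB (0.77, 0.000225) and NFKBIZ (0.70, 0.0182) missed the threshold on fold only. TAB2 (0.44, 0.271) missed both thresholds there. The interaction of guide and IL-1β was called for 0 of the 21 and for 0% of all tested genes, so this count does not set the list apart. The median interaction of the 21 was −0.34, against 0.01 over all tested genes. NFKBIA, which encodes the inhibitor IκBα, also differed without treatment, at 88.2 ± 2.8 CPM in sgERH against 36.9 ± 0.86 in sgAAVS1 (n = 3 and 2; log2 fold change 1.26 ± 0.21, edgeR adjusted p = 0.000287), as did the ubiquitin ligase gene TRAF6 (1.21 ± 0.32, edgeR adjusted p = 0.00585). Under IFNγ NFKBIA and NFKBIB, and under IL-1β NFKBIE, were higher in sgERH. These calls are 2, 2 and 1 of the 21 without treatment, under IFNγ and under IL-1β. Higher in sgERH were 5.95%, 5.24% and 5.68% of all tested genes. IL1R1, the gene of the signalling receptor itself, had 36 reads in the 15 libraries and was not tested.

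Many chemokine mRNAs carry AU-rich ends and turn over fast. With IL-1β 0.628% of all tested genes rose in sgAAVS1 and 0.269% in sgERH. Of 12 tested genes for proteins that act on the decay or stability of inflammatory mRNAs, 1 rose with each guide. This was ZC3H12A, which encodes the endonuclease Regnase-1, at 10.1 ± 0.89 and 45.9 ± 0.50 CPM in sgAAVS1 (n = 2 and 2; log2 fold change 2.18 ± 0.21, edgeR adjusted p = 1.36e-07) and at 28.8 ± 3.1 and 58.8 ± 9.7 CPM in sgERH (n = 3 and 3; 1.03 ± 0.15, edgeR adjusted p = 0.000129). ZC3H12A was also higher in sgERH without treatment and under IFNγ, and ARID5A was higher in sgERH under IL-1β. This is 1 of the 12 in each of these comparisons. Of all tested genes 5.95% were higher without treatment, 5.24% under IFNγ and 5.68% under IL-1β. The proteases ADAM10 and ADAM17, the former known to shed CXCL16, were tested and not called in any comparison, and DPP4, which trims several chemokines, had 32 reads and was not tested. Among factors that act on interferon-responsive promoters, IRF1, IRF2 and IRF9 rose with IFNγ in sgAAVS1 and IRF1 also did in sgERH, and the response of IRF1 and IRF9 was lower in sgERH by the interaction test. Of all tested genes 0.598% rose with IFNγ in sgAAVS1 and 0.015% in sgERH, and 0.202% were called in the interaction. IRF9 was higher in sgERH without treatment and STAT2 under IL-1β, where 5.95% and 5.68% of all tested genes were higher.

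Most of the chemokine system outside the members was not read. Of 38 other chemokine ligands listed, 30 had 0 reads, 6 had at most 6 reads over the 15 libraries, and 2, CCL3 and CCL3L1, were tested. Between CXCL8 and CXCL2 on chromosome 4 the other 5 CXC ligand genes of the cluster (CXCL6, PF4V1, PF4, PPBP and CXCL5) had 0 reads. All reads of CCL3 and CCL3L1, which are near-identical copies, were multimapping, so their values are uncertain. Both passed the filter on low counts only through their sgERH libraries, since no sgAAVS1 group mean exceeded 0.98 CPM. Their comparisons between guides drew on the groups that admitted them, so these calls and p-values are given as descriptions. CCL3 stood at 2.22 ± 0.16 CPM in sgERH NT against 0.496 ± 0.19 in sgAAVS1 NT (n = 3 and 2; log2 fold change 2.13 ± 0.67, edgeR adjusted p = 0.0191) and did not pass with IL-1β in sgAAVS1 (0.88 ± 0.82, edgeR adjusted p = 0.719) or sgERH (0.29 ± 0.44, 0.829). CCL3L1 was higher in sgERH without treatment and under IL-1β. Of 23 chemokine receptor genes 14 had 0 reads, with CXCR1 and CXCR2 among them, and the 2 that were tested, CCR10 and CCRL2, were not called in any comparison.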

How the data were processed

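QuantSeq 3′ mRNA libraries of RKO-iCas9 cells were analysed from the deposited per-gene tables. The authors trimmed reads with Trim Galore 0.6.2 (FastQC 0.11.8), mapped them to GRCh38 with SlamDunk in 3′-end windows built with 3-GAmES, and collapsed windows per symbol. The deposited values are raw read counts, with a count of multimapping reads, and no molecular identifiers are named, so intervals and floors cover counting error only. Groups came from the labels. The 15 libraries kept by the study (4987127 to 5986338 reads) were fitted together with edgeR 4.0.16 in R 4.3.3 (robust quasi-likelihood F test, TMM, filterByExpr with a minimum count of 10, 6 group means, 13370 genes), with Benjamini-Hochberg adjustment over all genes. Calls needed an adjusted p of at most 0.05 and a log2 fold change of 1 or more in either direction. A fold against 0 reads used a floor of 3 reads over the group. Likeness was Pearson's r of log2 CPM (prior count 2), and the 3 highest genes per member were named, with list genes named where called. The alternatives were DESeq2 1.42.0, its size factors in edgeR, no filter, all 18 libraries, only the groups compared, a replicate block, no multimapping reads and leaving out each library. The test was checked on simulated data. That check changed only genes with a mean above 10 reads per library, so it does not cover the lower NT and IFNγ counts of the members. The members, lists and tests were chosen with earlier results of these data known. Promoter windows were RefSeq sequence of GRCh38.p14. One gene of a fixed list is not reported here.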

Additional observations from a re-analysis of the deposited data

Results flagged for a closer look

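The 3 libraries left out of the comparisons were expressed as CPM of their total reads and set against the same measure in the 2 sgAAVS1 NT libraries used; values above both that rest on more than 3 reads are listed here, and they were not tested. Values above both from 3 or fewer reads were CXCL1 in sgERH IFNγ replicate 2 (3 reads, 0.699 CPM) and CCL20 in sgAAVS1 IL-1β replicate 3 (2 reads, 0.169 CPM). The library labelled sgAAVS1 NT replicate 1 held 2.36 CPM of CXCL1, where the sgAAVS1 NT libraries used held 0.334 to 0.384, and 1.31 CPM of CXCL8, where they held 0.501 to 0.576. In sgERH IFNγ replicate 2, CXCL8 stood at 2.10 CPM, between the 2.57 and 0.954 CPM of the sgERH IFNγ libraries used. In sgAAVS1 IL-1β replicate 3, the deepest library of the series, CXCL1 stood at 22.9 CPM, CXCL3 at 20.2 (0.384 to 1.503 in the sgAAVS1 NT libraries used), CXCL8 at 13.9 and CXCL2 at 1.02 (0 to 0.167). The sgAAVS1 IL-1β libraries used held 25.7 and 27.5 CPM of CXCL1, 16.8 and 17.2 of CXCL3, 13.9 and 14.3 of CXCL8 and 3.29 and 4.06 of CXCL2. CXCL16 stood at 72.8 CPM in sgAAVS1 IL-1β replicate 3, against 41.3 to 48.8 in the sgAAVS1 NT libraries used. The sgAAVS1 IL-1β libraries used held 50.1 and 45.4 CPM of CXCL16.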

How the results depend on the processing

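Counts of called members stayed within 1.5 times the reported count, or at 0, in 112 of 118 alternative counts. The exceptions were sgERH against sgAAVS1 without treatment (3 members reported), with 0 for all 18 libraries, 1 (CXCL1) with only the groups compared, and 0 to 3 when 1 library was left out. Under IFNγ the 2 members became 0 with all 18 libraries, and under IL-1β the 0 members ranged from 0 to 2 when 1 library was left out. The cause was not tested. Of the log2 values, 353 of 383 alternatives kept direction and side of the threshold and 7 changed sign, 6 of them differences of CXCL16 or CCL20 that were not called. CXCL16 was −0.20 between guides under IL-1β with all 18 libraries, −0.0153 for IL-1β in sgAAVS1 with the replicate block and −0.0943 to 0.169 there with 1 library left out, and −0.106 to 0.0293 for IFNγ in sgERH with 1 left out. With 1 left out, CCL20 between guides under IL-1β ran from −1.15 to 0.36 and the CXCL3 interaction from −1.82 to 0.072. Same-numbered libraries did not deviate together (r from −0.06 to 0.14 over 30 pairs, 1 above 0.1), so the numbers were not taken as pairs; the replicate block gave 5 members in place of 4 for IL-1β in sgAAVS1, adding CCL20, and changed no other count. Where leaving out a library left 1 in a group, that library was assumed to vary like the other groups. Depth limited the NT and IFNγ comparisons, since no member but CXCL16 exceeded 20 reads in any NT or IFNγ library used.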
